A study of Mus musculus with 8 samples.

Results

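Peaks of the glucocorticoid receptor (GR) were compared in mouse liver at the sites that ctrl. and CORT livers held and calorically restricted (cal. res.) livers lacked. Overlapping peaks of 6 GR ChIP-seq lists were merged into 51431 sites. A site counted as held by a group if each of the group's 2 lists had a peak overlapping it. On this rule 1845 sites were held by ctrl. and CORT but not by cal. res., and they are called missing sites here. The sites were chosen by measured peaks, so presence and absence of GR peaks at them is what the rule fixed and not a result. Of all 9942 sites that ctrl. and CORT held, 18.6% were missing from cal. res., and the other 8097 were held by all 3 groups.

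The livers came from adult male C57BL/6J mice on regular chow, and the study collected them at ZT12, lights-off. The ctrl. mice ate freely until a final period in which food was given only at night, labelled night restricted feeding. The cal. res. mice were brought stepwise to a restricted ration given at lights-off. The CORT mice ate only at night as well and received corticosterone, the main glucocorticoid of mice, by daily injection. Whether the ctrl. livers came from vehicle-injected mice is not given in the labels. Each group had 2 libraries. A FOXO1 list from calorically restricted liver was also used, called by the authors on 2 merged libraries, so it carries no replicate spread. Whole liver was used, so cells other than hepatocytes contributed.

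GR is a nuclear receptor that moves to chromatin when it binds glucocorticoid. At many distal elements it binds an inverted repeat, the glucocorticoid response element (GRE), often beside lineage factors such as C/EBP and HNF4. It can also be recruited to elements of STAT5, the factor activated by growth hormone in liver. CpG-rich promoters of broadly expressed genes lie in open chromatin and hold motifs of ETS factors, NRF1 and YY1. FOXO1 is a forkhead factor that insulin signalling keeps out of the nucleus.

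Distal missing sites of high rank in ctrl. and CORT show the elements behind the motif counts given further on. Each line holds 200 bp around the GR summit, on the forward strand of GRCm38, credited to RefSeq, with matches to the STAT motif TTCNNNGAA and to the FOX motif TATTTAC or TGTTTAC, read on either strand, in capitals. The first 3 sites had no peak in either cal. res. library. They lay at chr4:155316992-155317191 in an intron of Prkcz, an atypical protein kinase C; at chr7:131449204-131449403 in an intron of Fgfr2, a growth factor receptor, with Acadsb as the nearest coding start; and at chr11:12479810-12480009 between genes, nearest to Cobl. The last, at chr14:41140787-41140986 between genes and nearest to Sftpa1, also overlapped a FOXO1 peak and had a peak in cal. res. replicate 1 alone.
Prkcz intron: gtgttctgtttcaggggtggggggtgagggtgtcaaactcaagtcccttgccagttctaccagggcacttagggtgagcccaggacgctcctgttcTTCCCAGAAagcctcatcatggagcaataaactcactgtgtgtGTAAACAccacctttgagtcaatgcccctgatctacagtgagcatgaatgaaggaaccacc
Fgfr2 intron: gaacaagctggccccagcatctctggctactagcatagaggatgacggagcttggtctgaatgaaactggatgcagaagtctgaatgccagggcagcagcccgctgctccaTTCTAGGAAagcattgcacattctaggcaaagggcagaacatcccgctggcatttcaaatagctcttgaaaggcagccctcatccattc
Cobl upstream: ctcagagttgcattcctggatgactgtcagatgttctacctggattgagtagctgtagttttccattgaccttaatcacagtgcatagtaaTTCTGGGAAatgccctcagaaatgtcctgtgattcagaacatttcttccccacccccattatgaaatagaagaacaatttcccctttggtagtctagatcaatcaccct
Sftpa1 downstream: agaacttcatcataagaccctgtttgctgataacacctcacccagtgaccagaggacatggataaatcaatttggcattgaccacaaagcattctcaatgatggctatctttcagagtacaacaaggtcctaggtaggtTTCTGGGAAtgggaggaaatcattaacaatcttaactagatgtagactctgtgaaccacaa
The windows were chosen for a STAT, FOX or GRE match, so the STAT match in each is no count of how often such matches occur. The window in Prkcz also held a FOX match. A match is a string of letters and not a bound factor.

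The 6 GR lists differed in length, from 13667 peaks in ctrl. replicate 2 to 48060 in CORT replicate 2. Both cal. res. lists, with 24915 and 20444 peaks, lay between these. Read totals were not analysed here. The smallest local background, rebuilt from fold and p and related to depth, was 1.86 and 1.99 fragments in cal. res., 1.34 and 2.12 in ctrl., and 0.806 and 1.80 in CORT. The library names follow 2 styles, of which 1 covers both cal. res. libraries and ctrl. replicate 2 and the other covers both CORT libraries and ctrl. replicate 1. Whether the styles mark batches is not given in the labels, and style and group cannot be told apart between cal. res. and CORT. Sites held by ctrl. and CORT lay near 16 of 17 hepatocyte identity genes and near all 22 classic glucocorticoid target genes listed.

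The missing sites ranked lower than the sites of all 3 groups in the lists that held them. By within-list percentile of fold enrichment, where 100 is the strongest region, their medians were 57.0 and 34.1 in ctrl. replicates 1 and 2 and 54.7 and 63.7 in CORT replicates 1 and 2. At the sites of all 3 groups these medians were 85.7, 61.3, 81.9 and 87.1. The number of fragments over the summit (pileup) at missing sites had a median of 16 and 13 in ctrl. and of 13 and 20 in CORT, against 29, 17, 23 and 40 at the sites of all 3 groups. These values belong to the rule and carry no test. In 70.5% of missing sites the weakest of the 4 peaks was that of ctrl. replicate 2, the shortest list.

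**Figure D1:**
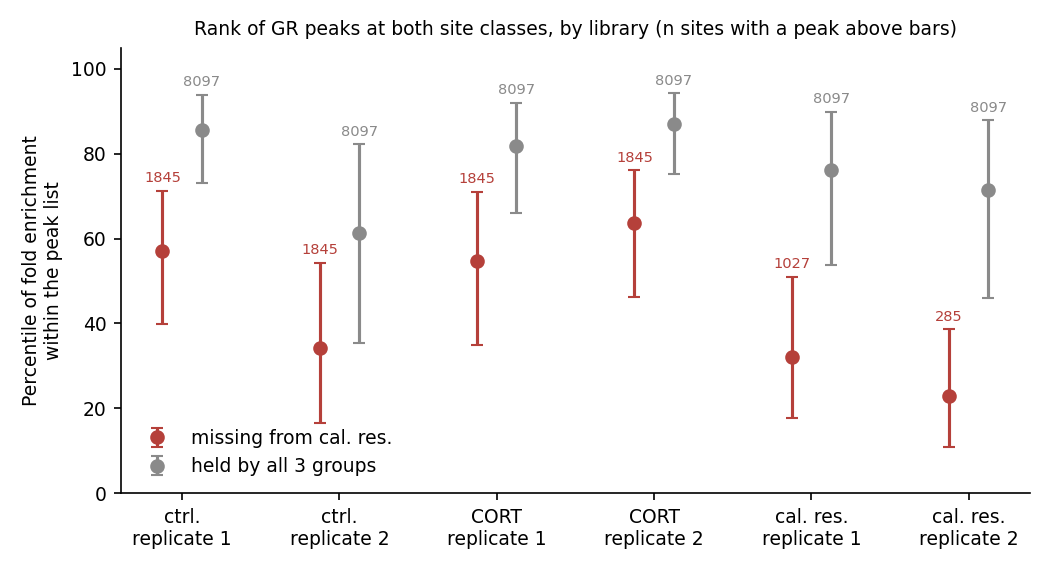
Within-list percentile of fold enrichment (points, median; bars, interquartile range) of the GR peaks at missing sites (red) and at sites of all 3 groups (grey) in each of the 6 libraries, with the number of sites that had a peak. Missing sites ranked lower in every library, with medians from 22.9 to 63.7, and 1027 and 285 of them had a peak in cal. res. replicates 1 and 2.

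Most missing sites were not empty in cal. res. liver. A peak was present in cal. res. replicate 1 alone at 1027 sites (55.7%, exact 95% interval 53.4 to 57.9), in replicate 2 alone at 285 (15.4%, 13.8 to 17.2), and in neither at 533 (28.9%, 26.8 to 31.02). Where 1 cal. res. library had the peak, its median pileup was 15 fragments in replicate 1 and 12 in replicate 2, while the lowest pileup in either list was 8. At the 533 sites with none, the median pileup was 13 in both ctrl. libraries and 11 and 18 in CORT. A site without a peak has no value in the list, so how far it fell short of the call is not known. The study's own rule could also accept ranges above a read count limit, which was not applied here, so some of the 1312 sites with 1 cal. res. peak may count as held under that rule. The median distance from a missing site to the nearest region of a cal. res. library that lacked it was 14.2 kb in replicate 1 and 18.96 kb in replicate 2, and 52 of 818 and 80 of 1560 such sites had a region within 1 kb. At the edge of the rule, the single cal. res. peak had a median q of 2.25e-05, and at 163 of 1312 such sites its q was above 0.01. Just outside, the weaker cal. res. peak of the sites of all 3 groups had a median q of 1.31e-11, with 368 of 8097 above 0.01. Single libraries moved the number of missing sites: leaving out cal. res. replicate 2 gave 817 and leaving out ctrl. replicate 2 gave 7547.

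Missing sites lay mainly at promoters. A transcription start was within 1 kb of the site's centre at 1221 of 1845 missing sites (66.2%, exact 95% interval 64.0 to 68.3), against 38.01% (36.96 to 39.1) of the sites of all 3 groups. The difference was 28.2 percentage points (Newcombe 95% interval 25.7 to 30.5), where these intervals cover counting error only, since sites are not replicate animals. The promoter share was also higher than in the 334 sites held by ctrl. and cal. res. but not CORT (44.9%, difference 21.3 points, 15.5 to 26.9) and in the 4694 sites held by cal. res. and CORT but not ctrl. (21.2%, difference 45.0 points, 42.5 to 47.4). The 720 sites of ctrl. only stood nearer, at 60.4% (56.7 to 64.01). The share was 32.3% (31.3 to 33.3) in the 7828 sites of CORT only and 15.1% (13.2 to 17.3) in the 1229 of cal. res. only. Put the other way, 28.4% of promoter sites held by ctrl. and CORT were missing from cal. res., against 11.1% of those elsewhere. The excess ended under a looser rule: when a peak in either library of a group was enough, 8043 sites were missing and their promoter share differed by -1.02 points (-2.22 to 0.202). Without ctrl. replicate 2 it was 10.998 points. Promoter sites of all 3 groups also ranked lower than distal ones, most of all in cal. res. Their median percentiles in replicates 1 and 2 were 58.2 and 51.9 in cal. res., against 83.8 and 80.3 at distal sites. In ctrl. they were 80.01 and 55.7 against 88.9 and 64.1, and in CORT 81.6 and 84.3 against 82.2 and 88.5. Whether the promoter excess goes beyond this lower rank of promoters in the cal. res. lists was not tested.

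Missing promoter sites lay close to the start. Their summits lay at a median of -29 bp from the nearest start, where a minus sign means upstream (interquartile range -137 to 88 bp), and 1172 of the 1221 had a protein-coding start within 1 kb. The 200 bp around the summit had a median GC content of 64.5%, and 83.3% of these windows had a CpG ratio (observed over expected) above 0.6, against 67.3% at the promoter sites of all 3 groups (difference 16.0 points, 13.3 to 18.6). Away from promoters, 59.1% of the 624 missing sites had their summit in an intron and 32.5% between genes, and the median distance to a coding start was 17.6 kb.

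FOXO1 peaks were rare at missing sites. A FOXO1 peak of calorically restricted liver overlapped 219 of 1845 missing sites (11.9%, 10.4 to 13.4) and 4104 of 8097 sites of all 3 groups (50.7%, 49.6 to 51.8), a difference of -38.8 points (-40.6 to -36.9). The same direction held at promoters (10.2% against 35.2%, -25.0 points, -27.3 to -22.6) and away from them (15.2% against 60.2%, -45.0 points, -47.9 to -41.6). Of the missing sites with no cal. res. peak, 6.57% overlapped FOXO1, against 14.0% of those with 1 (difference -7.46 points, -10.1 to -4.45). The FOXO1 share was lower than in the sites missing from CORT (21.6%, -9.69 points, -14.6 to -5.33) and in those missing from ctrl. (28.0%, -16.2 points, -18.1 to -14.2), and higher than in the 7828 sites of CORT only (6.44%, 5.43 points, 3.92 to 7.07). It was 8.06% (6.17 to 10.3) in the 720 sites of ctrl. only and 18.1% (16.0 to 20.4) in the 1229 of cal. res. only. A low FOXO1 share was thus not particular to the missing sites. FOXO1 was measured in calorically restricted liver only, so its level at these sites in ctrl. or CORT liver is not known. The FOXO1 list was cut more strictly than the GR lists, with a largest q of 9.84e-06 against a cutoff of 0.1. Missing sites were also narrower, at a median of 863 bp against 1139 bp. Among sites of at most 1000 bp the FOXO1 difference was -32.3 points (-34.7 to -29.6).

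**Figure D2:**
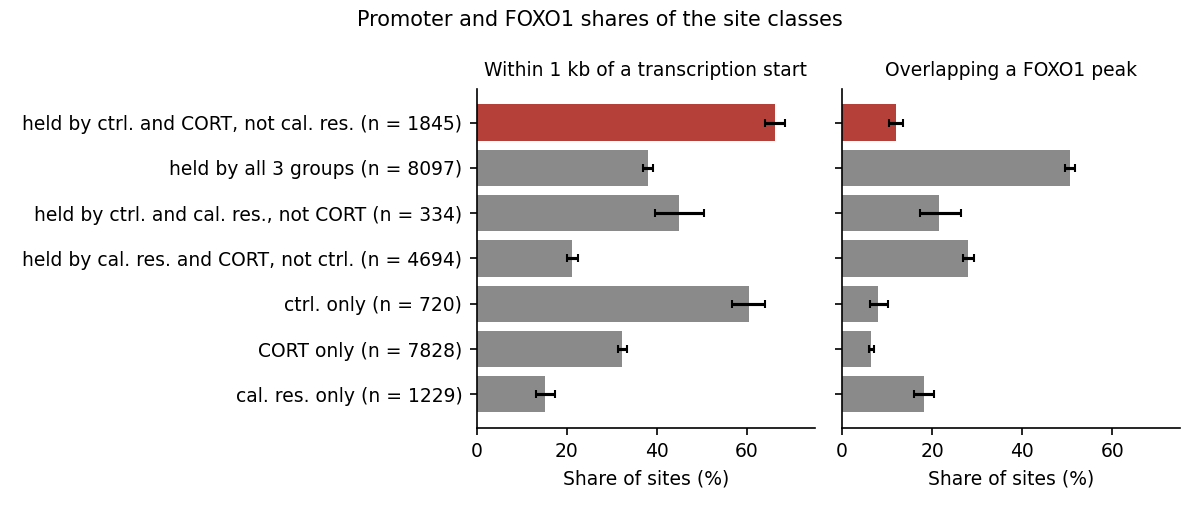
Share of sites within 1 kb of a transcription start (left) and overlapping a FOXO1 peak (right) in each class of sites, in percent with exact 95% intervals. Missing sites (red) stand at 66.2% for promoters and 11.9% for FOXO1, against 38.01% and 50.7% at sites of all 3 groups.

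Both differences were also present within rank groups, which match rank only coarsely. The 9942 sites held by ctrl. and CORT were split into 5 equal rank groups by their mean percentile over those 4 lists. The weakest ran from a mean percentile of 6.36 to 53.9, so sites within it could still differ in rank. From the weakest to the strongest rank group, 53.1%, 25.1%, 10.6%, 3.37% and 0.603% were missing, a relation that the rule itself favours. Within each of the 4 weaker rank groups the missing sites still had the higher promoter share, by 22.0, 19.7, 24.9 and 18.1 points, and the lower FOXO1 share, by -13.2, -19.6, -24.8 and -28.6 points, and all 8 intervals left out 0. In the strongest rank group, with 12 missing sites, both intervals included 0. In the weakest rank group 64.2% of promoter sites without FOXO1 were missing, against 49.1% of promoter sites with FOXO1, 46.0% of distal sites without FOXO1 and 19.8% of distal sites with FOXO1. Over all 5 rank groups the 4 shares were 35.5%, 10.3%, 20.9% and 3.05%.

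**Figure D3:**
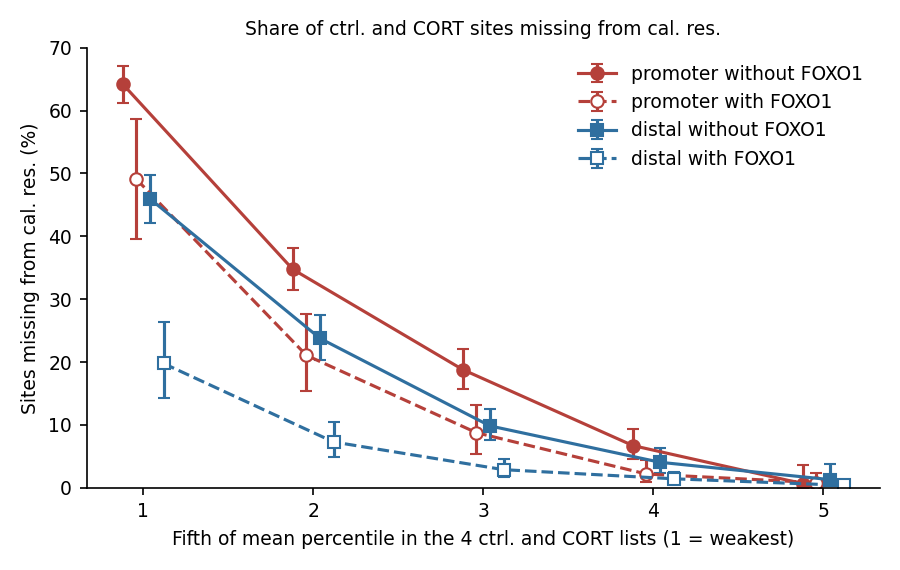
Percentage of the sites held by ctrl. and CORT that were missing from cal. res., by rank group (5 equal groups of mean percentile in the 4 ctrl. and CORT lists), for promoter (red) and distal (blue) sites with and without a FOXO1 peak, with exact 95% intervals. Points are set slightly apart for legibility. The weakest rank group runs from 19.8% for distal sites with FOXO1 to 64.2% for promoter sites without it.

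Sequence motifs separated the missing sites from those of all 3 groups in different ways at promoters and away from them. Of 14 motifs searched on both strands in the 200 bp around the summit, 7 differed at promoters and 3 away from them, by Newcombe intervals at an error level of 0.005. The GRE, here GNACA and TGTNC spaced by 3 bases, was in 3 of 1221 promoter windows and 4 of 624 distal windows of missing sites. At the distal sites of all 3 groups it was in 6.00% (difference -5.36 points, -6.47 to -3.45), and at their promoters in 1.89% (-1.64 points, -2.48 to -0.632). Within each of the 5 rank groups the interval of the distal GRE difference included 0, and the GRE share of the sites of all 3 groups ran from 1.57% in the weakest to 12.9% in the strongest, so a GRE difference apart from rank was not detectable with this number of sites. The C/EBP motif TTGCNNAA was also lower, in 15.5% against 22.2% of distal windows (-6.69 points, -10.7 to -1.91) and in 4.996% against 9.62% at promoters (-4.63 points, -6.80 to -2.14). As for the GRE, the interval of the distal C/EBP difference included 0 within each of the 5 rank groups. The distal GRE share of missing sites was not told apart from that of ctrl. only (1.05%, -0.412 points, -3.89 to 1.47) or CORT only (1.91%, -1.26 points, -2.03 to 0.495). It was below that of cal. res. only (3.64%), of cal. res. and CORT (2.76%) and of ctrl. and cal. res. (4.35%), with intervals that left out 0.

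At promoters the ETS, YY1 and NRF1 motifs were more frequent at missing sites than at sites of all 3 groups. The ETS motif CCGGAAG was in 14.8% of missing promoter windows, 9.62% of those of all 3 groups (difference 5.20 points, 2.13 to 8.58) and 5.87% of 77161 windows around annotated starts. YY1 (AAGATGGCG) was in 3.11% against 1.40% (1.71 points, 0.375 to 3.50), and 1.30% of all starts. NRF1 (GCGCATGCG) was in 3.85% against 2.21% (1.64 points, 0.0940 to 3.61), and 0.972% of all starts. The NRF1 difference passed in 4 of 14 alternatives, the YY1 difference in 11 and the ETS difference in 12. The GR hexamer AGAACA, which can overlap the GRE, was in 6.39% against 10.5% of promoter windows (-4.14 points, -6.52 to -1.46), and FOX in 1.88% against 4.62% (-2.73 points, -4.17 to -1.01). Away from promoters the intervals of the GR hexamer (-4.61 points, -9.18 to 0.609) and of FOX (-3.50 points, -6.54 to 0.449) included 0. The GC box GGGCGG, the CCAAT box, the E-box CACGTG, the CRE TGACGTCA, HNF4 (CAAAGTCCA) and DR1 (AGGNCA repeated with 1 base between) had intervals that included 0 at promoters. So had STAT, in 4.83% against 5.66% (-0.825 points, -2.76 to 1.47). The high ETS share was not particular to missing sites. By the holding group's own summits, ETS was in 14.9% of promoter windows of ctrl. only and 12.9% of CORT only. It was in 8.45% of those of cal. res. and CORT, 7.33% of ctrl. and cal. res. and 6.99% of cal. res. only. The promoter motifs were not compared at like rank or CpG ratio.

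Away from promoters the STAT motif was the 1 motif that was more frequent at missing sites. It was in 116 of 624 windows (18.6%, exact 95% interval 15.6 to 21.9) against 577 of 5019 (11.5%), a difference of 7.09 points (2.91 to 11.997). Over promoter and distal sites together STAT did not differ, in 9.49% against 9.28% (0.208 points, -1.78 to 2.47). From the weakest to the strongest rank group, 12.8%, 20.8%, 27.0%, 41.4% and 62.5% of missing distal windows held it, the last being 5 of 8, while in the sites of all 3 groups it was 9.04%, 8.55%, 9.73%, 11.5% and 15.3%, and the interval left out 0 in all rank groups but the weakest. The split by rank was made after the motif shares were seen. STAT was in 17.6% (11.96 to 24.6) of distal missing windows without a cal. res. peak and in 18.9% (15.5 to 22.7) of those with 1, a difference of -1.25 points (-10.2 to 9.89). Where the holding group's own summits were used, STAT stood at 4.51% in distal sites of cal. res. only, 7.70% in sites of cal. res. and CORT, 6.52% in sites of ctrl. and cal. res., 11.6% in sites of ctrl. only and 13.1% in sites of CORT only. The missing sites exceeded these by 14.1 points (9.56 to 19.1), 10.9 points (6.70 to 15.8), 12.1 points (3.94 to 17.99), 7.01 points (-0.506 to 13.4) and 5.46 points (1.26 to 10.4). The STAT match lay at a median of 30.5 bp from the summit. None of the 116 windows held a GRE, which 4 of all 624 distal missing windows did. The GR hexamer was in 30 of the 116 (25.9%), against 30.7% of the 577 STAT windows of all 3 groups. FOXO1 overlapped 21 of the 116 sites (18.1%), near the 15.2% of all distal missing sites, against 365 of 577 STAT sites of all 3 groups (63.3%). The difference was no longer past the interval without cal. res. replicate 2 (2.63 points, -2.70 to 9.99), without CORT replicate 1 (2.23 points, -0.985 to 6.07), when the lists were shortened to equal length (5.64 points, -0.128 to 13.2), or when both cal. res. libraries had to lack the peak (6.15 points, -0.973 to 16.4), and it was -1.01 points (-2.27 to 0.337) when a peak in either library was enough.

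**Figure D4:**
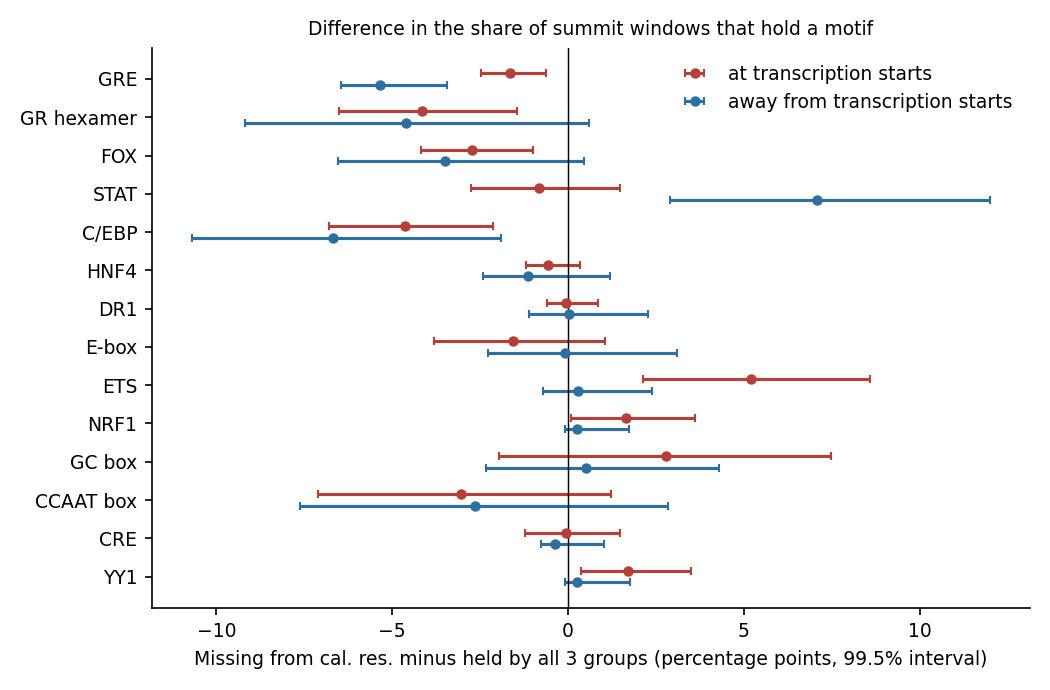
Difference between missing sites and sites of all 3 groups in the share of summit windows that held each of 14 motifs, in percentage points with intervals at an error level of 0.005, at transcription starts (red) and away from them (blue). STAT at distal sites (7.09 points) and ETS at promoters (5.20 points) lie highest among the motifs whose interval leaves out 0, and distal C/EBP (-6.69 points) lies lowest.

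The distal STAT sites of the 2 strongest rank groups numbered 17, a set looked at after the shares were seen. Neither cal. res. library had a peak at 5 of them, replicate 1 alone had one at 10 and replicate 2 alone at 2. Over all distal missing sites these shares were 24.5%, 58.8% and 16.7%. FOXO1 overlapped 9 of the 17. Among all distal missing sites it overlapped 11 of 29 in rank group 4 and 5 of 8 in rank group 5, the strongest. Among all distal sites held by ctrl. and CORT it overlapped 765 of 1208 and 1245 of 1475. At the site in an intron of Tead1, a partner of YAP, the pileup was 18 and 15 in ctrl., 47 in CORT replicate 2 and 42 in cal. res. replicate 1, and the CORT replicate 1 peak was too strong to rebuild. At the site 58.3 kb from Vegfa, the angiogenic growth factor, it was 20 and 18 in ctrl., 35 in both CORT libraries and 50 in cal. res. replicate 1. Both sites are missing through the absence in cal. res. replicate 2. At the site in an intron of Tspo, a cholesterol-binding protein of mitochondria, it was 18 and 22 in ctrl., 26 and 31 in CORT and 13 in cal. res. replicate 2.

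The distal missing sites named first had clear peaks in ctrl. and CORT. At the Prkcz intron (chr4:155316191-155317483) the pileup reached 28 and 23 fragments in ctrl. (replicates 1 and 2, in that order here) and 38 and 39 in CORT. Pileups are not scaled for depth. Where a single cal. res. value is called inside or below the range of the holding libraries, its fold enrichment was so as well. Fold enrichment is comparable within a list only, so such a placement does not show like or lower binding. At the Fgfr2 intron (chr7:131448968-131449569) the pileup was 26 and 30 in ctrl. and 41 and 23 in CORT. Neither cal. res. library had a peak at these 2 sites.

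Upstream of Cobl (chr11:12479640-12480329) the pileup was 23 and 20 in ctrl. and 19 and 41 in CORT. At a wide site by Serpina1e (chr12:103943823-103950946), in the cluster of alpha-1-antitrypsin genes, it was 37 and 21 in ctrl. and 18 and 45 in CORT. Near-identical copies in that cluster make the placement of reads uncertain, and its window held none of the 14 motifs. A site 129.8 kb upstream of Efna5, an ephrin ligand, had 28 and 17 in ctrl. and 15 and 28 in CORT. A site 16.5 kb downstream of the start of Txn2, the mitochondrial thioredoxin, had 25 and 14 in ctrl. and 30 and 20 in CORT. Both held a STAT match. Of the 7 distal sites among the 10 highest, 6 held the STAT motif, and 1 of these is not described here.

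At promoters, Fnbp4 (chr2:90745004-90745849) had a pileup of 24 and 18 fragments in ctrl. and 19 and 56 in CORT. Zfp319 (chr8:95331514-95332613) had 27 and 22 in ctrl. and 15 and 28 in CORT. Mrpl45 (chr11:97315453-97316367), a protein of the mitochondrial ribosome, had 22 and 27 in ctrl. and 26 and 27 in CORT. Both Zfp319 and Mrpl45 overlapped a FOXO1 peak. Scly, which recycles selenium from selenocysteine, had 14 and 22 in ctrl. and 18 and 48 in CORT. Sfxn5, a mitochondrial carrier, had 12.6-fold and 3.94-fold enrichment in ctrl. and 12.1-fold and 17.6-fold in CORT.

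Of the 5 highest-ranked missing sites with a FOXO1 peak, 4 kept a peak in cal. res. replicate 1, as did 55.7% of all missing sites. An intron site of the glycine transporter Slc6a9 (chr4:117836107-117836963) had 14.8-fold and 8.97-fold enrichment in ctrl., 26.4-fold and 34.1-fold in CORT and 9.09-fold in cal. res. replicate 1. The site by Sftpa1 had a pileup of 25 and 30 in ctrl., 35 and 45 in CORT and 32 in cal. res. replicate 1. That cal. res. value lies within the range of the 4 holding libraries. The histone gene Hist1h4c had 10.6-fold and 6.31-fold enrichment in ctrl., 22.2-fold and 24.9-fold in CORT and 4.35-fold in cal. res. replicate 1. A site by Myl3 had a pileup of 36 and 18 in ctrl., 30 and 47 in CORT and 14 in cal. res. replicate 1. Histone genes are near-identical copies, so Hist1h4c is uncertain.

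Ribosomal protein genes, of the cytosol and of mitochondria, had the highest shares of missing sites among the gene lists. Near ribosomal protein genes 17 of 28 sites were missing (60.7%, exact 95% interval 40.6 to 78.5), near genes of the mitochondrial ribosome 14 of 28 (50%, 30.6 to 69.4), near genes of oxidative phosphorylation 15 of 34 (44.1%, 27.2 to 62.1) and near proteasome genes 8 of 21 (38.1%, 18.1 to 61.6). Over all 9942 sites it was 18.6%, and 28.4% over promoter sites. The intervals of both ribosomal lists lay above both values, that of oxidative phosphorylation included 28.4%, and that of the proteasome included both. Counted by gene, 15 of 26 ribosomal protein genes with a promoter site had a missing one, as had 18 of 29 mitochondrial ribosome genes, 14 of 33 genes of oxidative phosphorylation and 7 of 14 proteasome genes, against 1354 of 4387 genes in all (30.9%). The count by gene assigns sites otherwise than by the nearest coding start. By nearest start only 25 mitochondrial ribosome genes had a site. RNA polymerase II and splicing genes stood at 14 of 44 sites and chaperones at 9 of 33, near the promoter background. These lists were drawn up with earlier results known, and ribosomal protein genes have many pseudogene copies. Neither background was matched for rank. In the weakest rank group 62.7% of all promoter sites were missing, so an excess near ribosomal genes apart from rank was not tested.

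Within these groups the cal. res. peaks differed from gene to gene. No cal. res. peak was present at 5 of the 17 missing ribosomal protein sites, 7 of 14 of the mitochondrial ribosome, 7 of 15 of oxidative phosphorylation and 4 of 8 of the proteasome. The share without one was 28.9% over all missing sites and 31.1% over those at promoters. An ETS match was in the windows of 4 of the 17, 5 of the 14, 3 of the 15 and 3 of the 8 missing sites, beside 14.8% over all missing promoter windows. At the promoter of Rps13, a protein of the small ribosomal subunit, the pileup was 9 and 13 in ctrl. and 10 and 22 in CORT, with no cal. res. peak. At Rpl35a, of the large subunit, it was 11 and 15 in ctrl. and 13 and 14 in CORT, with none in cal. res., and its window held a YY1 match. Mrps36 and Mrpl53 of the mitochondrial ribosome had no cal. res. peak and an ETS match each, with 17 and 15 fragments in ctrl. and 17 and 33 in CORT at Mrps36, and 9 and 14 in ctrl. and 8 and 10 in CORT at Mrpl53.

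Respiratory chain genes showed the same mixture of absent and single cal. res. peaks. At the promoter of Atp5h, a subunit of ATP synthase (chr11:115419431-115420273) the pileup was 13 and 13 in ctrl. and 23 and 41 in CORT, and neither cal. res. library had a peak. At Atp5e it was 12 and 15 in ctrl. and 12 and 40 in CORT, with none in cal. res., and its window held an ETS match. At Cox4i1, a subunit of cytochrome c oxidase, it was 16 and 18 in ctrl., 14 and 10 in CORT and 13 in cal. res. replicate 2, which overlaps the range of the holding libraries. At Uqcrc2, a core protein of complex III, the 4 holding libraries lay between 9 and 19. Ndufa5 and Ndufb5, subunits of complex I, each kept 1 cal. res. peak, with 11 fragments. Among proteasome genes, Psmd7 had 11 and 15 in ctrl. and 11 and 10 in CORT and Psmc4 had 12 and 17 in ctrl. and 9 and 24 in CORT, both without a cal. res. peak. Of the splicing factors, the Srsf2 promoter had 18 and 13 in ctrl. and 22 and 31 in CORT and none in cal. res., while that of Srsf3 kept 14 fragments in cal. res. replicate 1. The promoter of Hsp90aa1, the stress-inducible HSP90 that also folds GR, had 24 and 17 in ctrl., 16 and 13 in CORT and 20 in cal. res. replicate 1, inside the range of the others.

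Lists of hormone response and metabolism were compared with the same background. For 6 of them the exact 95% interval lay below 18.6%. Missing sites made up 3 of 66 near cholesterol and bile acid genes (4.55%, 0.947 to 12.7), 3 of 65 near classic glucocorticoid targets (4.62%, 0.962 to 12.9) and 2 of 40 near fatty acid oxidation genes (5%, 0.611 to 16.9). They made up 2 of 39 near clock genes (5.13%, 0.627 to 17.3), 4 of 52 near insulin and FOXO1 axis genes (7.69%, 2.14 to 18.5) and 6 of 71 near genes of gluconeogenesis and amino acid breakdown (8.45%, 3.16 to 17.5). The intervals of all 6 included 11.1%, the share of sites away from transcription starts. The other 6 intervals included 18.6%. These were 3 of 41 near acute-phase and complement genes (7.32%, 1.54 to 19.9), 2 of 21 near STAT and interferon genes (9.52%, 1.17 to 30.4), 5 of 52 near lipogenesis genes (9.62%, 3.20 to 21.03), 5 of 48 near growth hormone and STAT5 axis genes (10.4%, 3.47 to 22.7), 8 of 52 near hepatocyte identity genes (15.4%, 6.88 to 28.1) and 6 of 21 near autophagy genes (28.6%, 11.3 to 52.2).

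**Figure D5:**
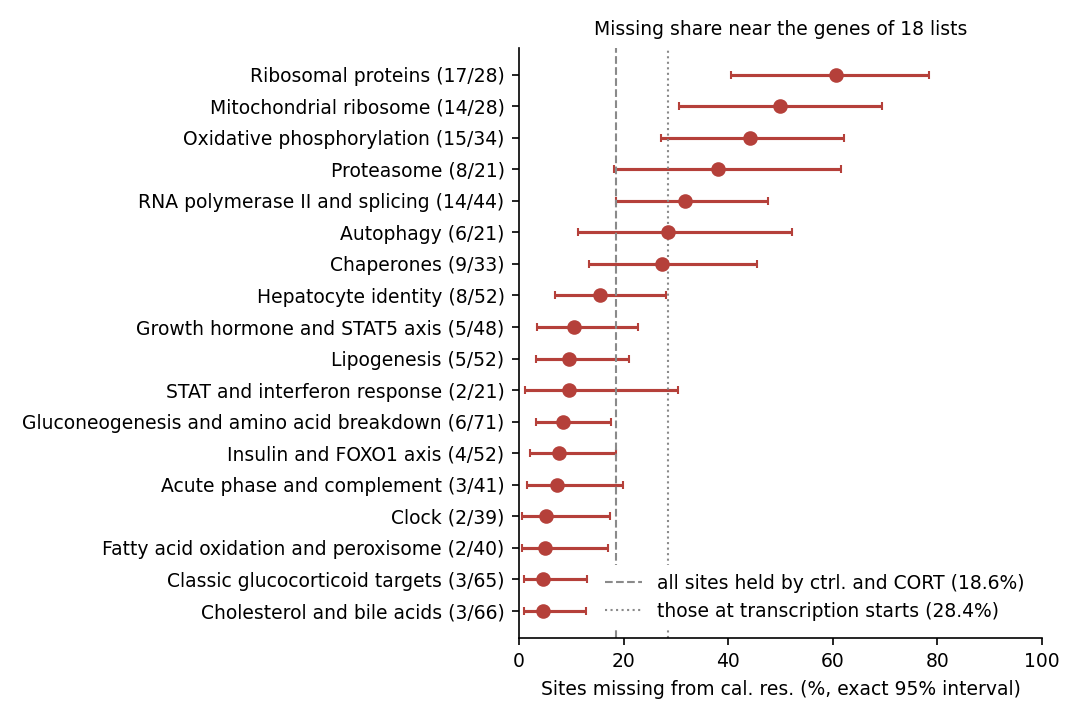
Percentage of the sites held by ctrl. and CORT near the genes of 18 lists (nearest coding start within 50 kb) that were missing from cal. res., with exact 95% intervals and the counts in brackets. Ribosomal proteins (60.7%) lie highest and cholesterol and bile acids (4.55%) lowest, against 18.6% over all such sites (dashed) and 28.4% at transcription starts (dotted).

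In the growth hormone axis, missing sites lay at both Stat5 genes and at a main target. Igf1, the growth factor that liver secretes under growth hormone, had 2 of them within 50 kb of its start. The site 4.92 kb downstream of its start (chr10:87865625-87866880) had a pileup of 10 and 12 in ctrl. and 15 and 12 in CORT and no cal. res. peak. The site 40.9 kb downstream (chr10:87901793-87902643) had 16 and 19 in ctrl., 16 and 15 in CORT and 18 in cal. res. replicate 1, within the range of the others. Both windows held a STAT match. The Stat5a promoter had 13 and 10 in ctrl., 10 and 22 in CORT and 10 in cal. res. replicate 1. The Stat5b promoter had 16 and 14 in ctrl., 10 and 17 in CORT and 9 in cal. res. replicate 2, below all 4 holding libraries. Cyp7b1, a sex-biased hydroxylase of oxysterols, kept a peak in cal. res. replicate 1.

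In insulin and nutrient signalling, Irs1, which couples the insulin receptor to its kinases, had a site 7.56 kb downstream of its start with 19 and 14 fragments in ctrl., 17 and 28 in CORT and no cal. res. peak. The Foxo1 promoter had 16 and 13 in ctrl., 18 and 35 in CORT and 11 in cal. res. replicate 1. Sesn3, an mTORC1 inhibitor, and Pdpk1, the kinase upstream of AKT, each kept 1 cal. res. peak, of 9 and 21 fragments. At Pdpk1 the fold enrichment of that peak, 5.38, lay within the 4.38 to 9.11 of the holding libraries.

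Over all missing sites 28.9% had no cal. res. peak. Among lipid genes, 4 of the 5 missing lipogenesis sites had none. They lay at the promoter of Fads1, a fatty acid desaturase, with 18 and 14 in ctrl. and 26 and 19 in CORT, upstream of Insig1, which retains SREBP in the endoplasmic reticulum, upstream of Srebf1, the gene of SREBP-1, and downstream of Thrsp. The Srebf1 site (chr11:60222404-60223430) had 16 and 13 in ctrl. and 12 and 23 in CORT. Dgat1, which makes triglyceride, had 22 and 26 in ctrl., 16 and 36 in CORT and 14 in cal. res. replicate 1.

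Interferon and acute-phase genes had a few such sites, each with 1 cal. res. peak, as had 1312 of all 1845 missing sites. The promoter of Irf9, a factor of the interferon response, had 15 and 16 in ctrl., 13 and 38 in CORT and 14 in cal. res. replicate 1, and held a STAT match. A site 7.99 kb upstream of Hp, haptoglobin, had 41 and 17 in ctrl., 30 in CORT replicate 1 and 25 in cal. res. replicate 1, and in CORT replicate 2, where the peak was too strong to rebuild a pileup, its fold enrichment was 38.2. A site 8.06 kb upstream of C3, the central complement protein, had 10 in both ctrl. libraries, 9 and 28 in CORT and 15 in cal. res. replicate 2. At all 3 the single cal. res. value lay within the range of the holding libraries.

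Single sites of hormone targets and regulators were also missing. Tsc22d3, the glucocorticoid target also called GILZ, had a promoter site (chrX:140598932-140600422) with 17 and 15 fragments in ctrl., 19 and 14 in CORT and no cal. res. peak. The Cry1 promoter, of a clock repressor, had 39 and 19 in ctrl., 46 and 13 in CORT and 10 in cal. res. replicate 2, and overlapped FOXO1. A site by Bhlhe40, another clock repressor, had 33 and 21 in ctrl., 33 and 49 in CORT and 33 in cal. res. replicate 1. A site 42.3 kb from the start of Ppargc1a, the coactivator of gluconeogenesis, had 16 and 14 fragments in ctrl., 22 and 25 in CORT and 31 in cal. res. replicate 1. Its fold enrichment in cal. res. replicate 1, 10.3, lay between the 4.40 to 11.8 of the holding libraries, and the site is missing by the absence in replicate 2. Hnf4a, a master regulator of hepatocytes, had a weak site 5.27 kb downstream of its start, with 9 in both ctrl. libraries, 12 and 19 in CORT and no cal. res. peak. A site 29.7 kb upstream of Alb, the albumin gene, had 41 and 12 in ctrl., 11 and 22 in CORT and 10 in cal. res. replicate 1, below all 4 holding libraries. Of the autophagy genes, the promoter of Ulk1, the initiating kinase, had 10 and 13 in ctrl. and 19 and 17 in CORT and no cal. res. peak, while those of Sqstm1, Lamp1 and Atg14 kept 1 in replicate 1 with 19, 18 and 23 fragments.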

How the data were processed

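GR ChIP-seq peak lists of 6 mouse liver libraries (3 groups of 2) and 1 FOXO1 list were analysed, grouped by sample title. Per the study's methods, the authors aligned reads to mm10 by BWA, discarded duplicated and multi-mapping reads, and ran MACS2 at a q cutoff of 0.1 on each GR library. Peaks in blacklisted regions were removed. In the deposited lists the fold enrichment (a ratio of pileup at the summit to the local background) can be compared within a list only. The p-values and q-values were deposited by the authors as -log10. Pileups were rebuilt from fold and p as whole numbers where -log10 p was under 60, and at least 99.99% per library came out within a tolerance of 0.002. Replicates were separate livers by the study's account. Read totals were not analysed here.

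Of rows with the same coordinates, that of highest fold was kept, and regions sharing at least 1 bp were merged. Gene models were GENCODE M21 basic. Promoter sites had a transcription start at most 1 kb from the centre. The 200 bp summit window came from the ctrl. or CORT library in which the site ranked highest. Shares have exact (Clopper-Pearson) 95% intervals and differences have Newcombe 95% intervals, or an error level of 0.005 for the 14 motifs; a difference was called when its interval left out 0. No test across libraries was made. The members, gene lists and motifs were chosen with earlier results of these data known. Named sites were the 10 of highest mean percentile without a cal. res. peak, the 5 highest at promoters, away from promoters and with FOXO1, and those within 50 kb of list genes. Some named items are not reported here. Statistics were first tested on simulated data. Alternatives covered q limits, equal list sizes, site definition and width, promoter and motif windows, FOXO1 strength and leaving out each library. Software was Python 3.11.15 with SciPy 1.17.1, NumPy 2.4.6, pandas 2.3.3 and matplotlib 3.10.9.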

Additional observations from a re-analysis of the deposited data

How the results depend on the processing

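No paired analysis was possible because the results rest on a peak being present in both libraries of a group, which leaves no value per replicate number to pair, and come from no test. The number of missing sites moved by over 1.5 times with a q of at most 1e-05 (829), an equal number of regions per library (947), sites of at most 1000 bp (1170), no peak in either cal. res. library (533), a peak in either library of a group (8043) and, chosen after seeing the data, ctrl. replicate 2 against both cal. res. libraries alone (3440). Leaving out 1 library at a time gave 817 to 7547 sites, promoter differences of 10.998 to 28.98 points, FOXO1 differences of -39.04 to -34.3 points and 8 to 10 called motifs. The promoter difference was -1.02 points with a peak in either library. The FOXO1 difference kept its direction and call under all alternatives run. Called motifs fell from 9 to 3 at distal sites only. Reversed single motifs were the CCAAT box with equal regions (5.68 points) and, with a peak in either library, NRF1 (-0.131 points), the GC box (-2.30 points), distal STAT (-1.01 points) and promoter NRF1 (-0.374 points). Of 308 single-motif values, 265 kept direction and call. The cause of these changes was not tested. Peak lists give no value below the caller's threshold, which limits what an absence means, and 2 libraries a group give no spread for a site.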
